A study of Mus musculus with 16 samples.

Results

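Pancreatic islets of B7-H4 cKO mice were compared with islets of Flox mice, all fed normal chow, by RNA sequencing. Of the 16 libraries of the study 8 belong to this comparison, 4 cKO and 4 Flox, and they were chosen by the group in their titles. The other 8 libraries come from islets of mice on a high-fat diet treated with adeno-associated virus and stand in a separate table with its own normalisation. Flox mice were homozygous for a Vtcn1 allele with loxP sites around exon 2, on a C57BL/6J background. cKO mice carried the same floxed alleles and, in addition, the Rip-Cre transgene B6.Cg-Tg(Ins2-cre)25Mgn/J, in which the rat insulin promoter drives Cre recombinase. Flox mice were littermates without Cre, so the deletion of B7-H4 and the presence of the transgene cannot be told apart. Islets were released with collagenase and picked by hand. The age and sex of the sequenced mice are not given in the sources used here, and nothing says that libraries were from single animals, so that p-values measure the spread between these samples.

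B7-H4, encoded by Vtcn1, is a co-inhibitory member of the B7 family that restrains T cell activation and is also present in non-immune tissue. Islets consist mainly of insulin-secreting β cells, with α, δ and PP cells, an endothelium and a few macrophages, and they are embedded in exocrine tissue whose acinar cells make digestive enzymes. β cells also carry the prolactin receptor. In pregnancy prolactin and placental lactogen act through this receptor, Jak2 and Stat5, and the response includes tryptophan hydroxylase and other genes of serotonin synthesis.

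Expression was deposited as fragments per kilobase of transcript, scaled to the mapped fragments of the library (FPKM), and the depth in reads is unknown. The table holds 17361 genes, of which the 11804 with a mean of at least 0.5 FPKM were tested on log2(FPKM + 0.5) with limma. The number of genes above 0 was 15338 to 15853 per library, and the relative depth read from the lowest values was 0.942 to 1.07. Each test was run on the FPKM as deposited and on FPKM divided by the median-of-ratios factor of the library, because abundant exocrine transcripts lower the FPKM of every other gene. The median log2 fold change of cKO against Flox over all genes tested was -0.34 as deposited and -0.0023 after scaling. A gene is named as called when its adjusted p was under 0.05 and its log2 fold change was over 1 in size, and a member of a list passed the test when its adjusted p was under 0.05.

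The libraries differed in more than genotype. The 45 acinar genes in the table, which encode digestive enzymes and their regulators, made up 40.8%, 51.2%, 48.1% and 51.0% of the summed FPKM in cKO 1 to 4 and 31.6%, 40.0%, 12.4% and 8.64% in Flox 1 to 4. Ins1 and Ins2 together made up 24.0% to 30.4% in cKO and 33.0% to 50.5% in Flox libraries. All 43 tested acinar genes had a higher mean in cKO after scaling, with a median log2 fold change of 1.78, but none passed the test in limma (an unadjusted p under 0.05 was reached by 39 higher and 0 lower genes). In bulk RNA, fewer cells of a type and less RNA per cell cannot be told apart.

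The library labelled Flox 1 stood apart from the other Flox libraries. The Y-linked genes Ddx3y, Eif2s3y, Kdm5d and Uty summed to 0.0437 FPKM in Flox 1, and to 17.7 to 35.7 FPKM in the other 7 libraries. Over the genes tested, the Spearman correlation of Flox 1 was 0.973 to 0.976 with the cKO libraries and 0.951 to 0.956 with the other Flox libraries. The other Flox libraries correlated with each other at 0.965 to 0.992 and with cKO libraries at 0.936 to 0.965. Whether this library differed in sex, in reproductive state or by a mislabelling is not given in the sources used here and was not tested, and each of these would change what a Flox mean stands for. The main results are therefore given over 4 against 4 libraries and without Flox 1. Flox 1 was set aside after its values were seen, so p-values from fits without it are descriptive.

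**Figure D1:**
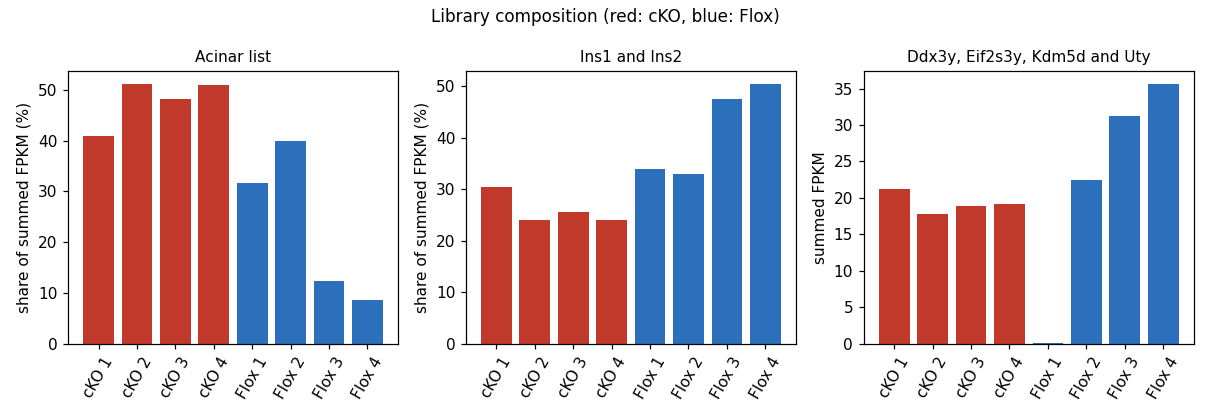
Bars show, for each of the 8 libraries, the acinar list and the insulin genes as a share of summed FPKM (%) and the summed FPKM of 4 Y-linked genes. Acinar share was 40.8% to 51.2% in cKO and 8.64% to 40.0% in Flox libraries, and Flox 1 was the one library with Y-linked genes near 0.

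The targeted gene was near the detection limit in both groups. Vtcn1 was listed at 0.0207, 0.125, 0.0202 and 0.0642 FPKM in cKO 1 to 4 and at 0.0199, 0.0603, 0.0188 and 0.216 FPKM in Flox 1 to 4. The groups overlapped, and the means were 0.0574 ± 0.0493 and 0.0786 ± 0.0933 FPKM (SD, n = 4, exact two-sided permutation test p = 0.886, where 0.0286 is the smallest p possible). In the GENCODE annotation of mm10, exon 2 of the transcript Vtcn1-201 lies at chr3:100874761-100874825. It spans 65 of 2622 bases, or 2.48% of the transcript, so FPKM over the whole gene need not fall when it is removed. The deletion was not detectable from these values. By quantitative PCR and Western blot, the study itself reported less B7-H4 mRNA and protein in cKO islets.

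Over 4 against 4 libraries, few genes were called on both scales. As deposited, 40 genes (0.339%) were called higher and 115 (0.974%) lower in cKO. After scaling, 26 (0.22%) were called higher and 10 (0.0847%) lower. Without the fold threshold, 120 (1.02%) were higher and 1511 (12.8%) lower as deposited, against 129 (1.09%) and 145 (1.23%) after scaling. The scaled calls depended on single libraries. When libraries were left out in turn, limma called 0 genes in 6 of 8 fits, and in these an unadjusted p under 0.05 was reached by 1146 to 1557 higher and 1023 to 1311 lower genes. Without Flox 2, the scaled fit called 212 higher and 23 lower. Without Flox 1, there were 158 (1.34%) higher and 333 (2.82%) lower genes as deposited and 221 (1.87%) and 89 (0.754%) after scaling. Without the fold threshold they were 348 (2.95%) and 2509 (21.3%) as deposited and 1016 (8.61%) and 974 (8.25%) after scaling. When the acinar share of each library was added as a covariate to the scaled fit without Flox 1, 159 (1.35%) were higher and 79 (0.669%) lower, and without the fold threshold 279 (2.36%) and 165 (1.4%). In that fit the comparison at a high acinar share rests on Flox 2, the one remaining Flox library with a share near that of cKO. Of 7 tested intestinal markers 5 were at 4.63 FPKM (Tff3) or more in Flox 2 and at 0.424 FPKM or less in the other 7 libraries, such as the goblet cell gene Clca1 at 8.09 and 0 FPKM. These 5 were lower in cKO with the covariate and did not pass without it. Of the genes called with the covariate, 108 of the 159 and 29 of the 79 were also called without the covariate. With the covariate and all 8 libraries, limma called 0 genes after scaling, and an unadjusted p under 0.05 was reached by 481 higher and 522 lower genes.

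Of the 11804 genes tested, 14 were called higher and 10 lower on both scales over 4 against 4 libraries. Outside the acinar list and with no overlap between groups, 12 genes rose and 10 fell. The absence of overlap was a condition of this choice, and its share over all genes is not given here. Tdh, the mitochondrial threonine dehydrogenase, had the largest increase. It stood at 3.95, 10.96, 6.97 and 6.46 FPKM in cKO 1 to 4 and at 0.0846, 1.61, 0.0798 and 0.04999 FPKM in Flox 1 to 4. The scaled log2 fold change was 3.35 (SE 0.54, limma adjusted p = 0.0374). Flox 2, the acinar-rich Flox library, was the highest of its group. Slc30a2, a zinc transporter of secretory vesicles, behaved alike, with 2.20 to 3.45 FPKM in cKO, 0.960 FPKM in Flox 2 and 0.247 to 0.306 FPKM in the other Flox libraries (scaled log2 fold change 2.12, SE 0.28). Tmem40, a transmembrane protein, showed another order: 2.32 to 2.84 FPKM in cKO, 1.49 FPKM in Flox 1 and 0.0178 to 0.0371 FPKM in Flox 2 to 4. Here Flox 1, not Flox 2, was nearest to the cKO libraries. Cntn3, a contactin adhesion protein, had the same order, with 1.66 to 2.02 FPKM in cKO, 1.64 FPKM in Flox 1 and 0.249 to 0.517 FPKM in Flox 2 to 4.

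The other 8 genes that rose were Ccdc74a, the mitotic ubiquitin-conjugating enzyme Ube2c, the Notch-modifying glycosyltransferase Lfng, the gap junction protein Gjb2, Extl1, Lrmp, the tight junction protein Cldn2 and Lcat, which esterifies cholesterol in lipoproteins. Their scaled log2 fold changes lay between 1.24 and 1.64. With the acinar share as a covariate and without Flox 1, Tmem40 (log2 fold change 2.62, limma adjusted p = 0.000339) and Cntn3 (1.65, limma adjusted p = 0.00513) passed the test, and the other 10 genes did not. Tdh then had a log2 fold change of 1.125 (limma adjusted p = 0.101) and Ube2c one of 0.13 (limma adjusted p = 0.781).

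Among the 10 genes that fell, Il1r1, the signalling receptor for interleukin-1, was the most abundant. It was at 37.2, 34.6, 37.9 and 29.1 FPKM in cKO 1 to 4 and at 67.3, 104, 160 and 159 FPKM in Flox 1 to 4 (scaled log2 fold change -1.35, SE 0.21, limma adjusted p = 0.0305). Slc38a4, a sodium-coupled amino acid transporter, was at 31.4 to 39.8 FPKM in cKO and 57.9 to 151 FPKM in Flox libraries, with 98.0 FPKM in Flox 2. Piga, needed for the first step of GPI anchor synthesis, Aqp1, a water channel, Jam2, a junctional adhesion molecule, Zdhhc2, a palmitoyltransferase, and the cadherin Cdh22 had scaled log2 fold changes between -1.52 and -1.01. Nfil3, a basic leucine zipper repressor linked to the circadian clock, was at 0.928 to 1.41 FPKM in cKO and at 6.33, 2.12, 9.75 and 15.4 FPKM in Flox 1 to 4 (scaled log2 fold change -1.83, SE 0.37). With the acinar share as a covariate and without Flox 1, Il1r1, Slc38a4, Aqp1, Piga, Jam2 and Zdhhc2 passed the test. Il1r1 then had a log2 fold change of -1.58 (SE 0.14, limma adjusted p = 0.000472), whereas Nfil3 had one of -0.33 (limma adjusted p = 0.549).

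**Figure D2:**
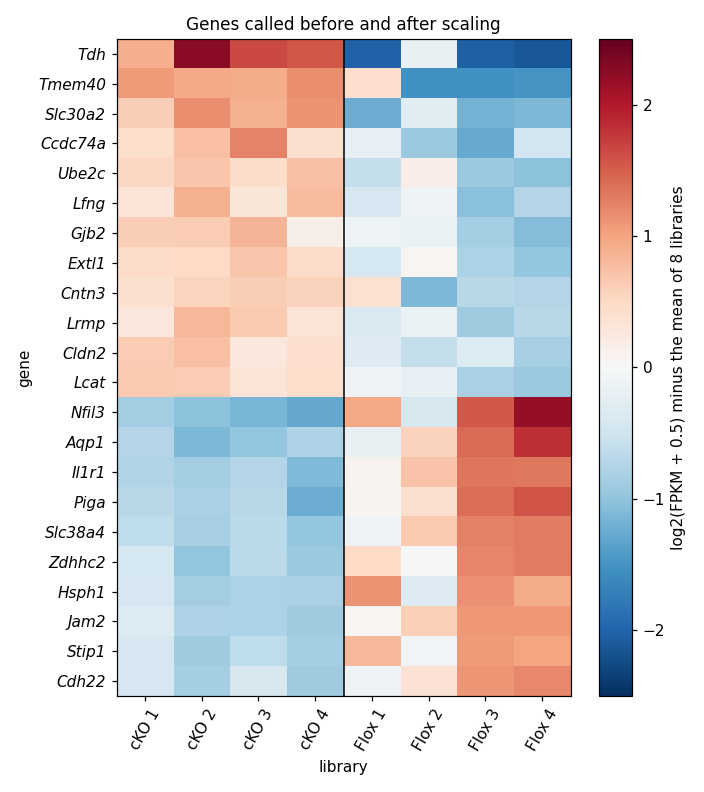
Each row is a gene called before and after scaling outside the acinar list, each column a library, and the colour is log2(FPKM + 0.5) minus the mean over the 8 libraries. The upper 12 genes rose and the lower 10 fell, and no overlap between the groups was a condition of their choice. Flox 2 was closest to cKO for Tdh, Slc30a2 and Hsph1, and Flox 1 was closest for Tmem40 and Cntn3.

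Of the 25 tested genes of the lactogenic list, 14 rose in cKO once Flox 1 was left out, while none passed the test over 4 against 4 libraries after scaling. Tph1, which makes the serotonin precursor 5-hydroxytryptophan, was at 116, 150, 121 and 146 FPKM in cKO 1 to 4 and at 112, 0.0885, 0.0318 and 0.0730 FPKM in Flox 1 to 4. Flox 1 lay just under the cKO libraries, and Flox 2 to 4 were near the detection limit. In the separate table, Tph1 was at 0 to 0.170 FPKM in the 8 libraries of mice on a high-fat diet. Over 4 against 4 libraries Tph1 did not pass the test (scaled log2 fold change 6.19, SE 1.67, limma adjusted p = 0.0802). Without Flox 1 the log2 fold change was 8.06 (SE 0.16, limma adjusted p = 1.22e-08), and with the acinar share as a covariate 7.76 (SE 0.24, limma adjusted p = 3.66e-07). Because Flox 1 was left out for its likeness to cKO, the small SE and p follow in part from that choice. They describe the remaining libraries and are no test of the group difference. The same holds for the other genes of this list.

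Of the 26 genes of the lactogenic list, 25 were tested. None passed the test over 4 against 4 libraries after scaling, where limma gave an unadjusted p under 0.05 to 15 higher and 3 lower members, and the median log2 fold change was 1.15. As deposited, Dmbt1 rose and Ghr, Ccnd2 and Cdkn1b fell, and the median was 0.76 against -0.34 over all genes tested. Without Flox 1, 14 rose and 1 fell, against 8.61% and 8.25% of all genes tested, and the median was 1.44 against 0.0012 over all genes. The fit with the acinar share as a covariate had 14 higher and none lower, against 2.36% and 1.4% of all genes, with a median of 1.34. The list was chosen with the values of these libraries known. Several transgenes used to express Cre in β cells carry a human growth hormone minigene, and human growth hormone binds the mouse prolactin receptor. Whether the Rip-Cre line of these mice carries it is not given in the sources used here. The human gene was not analysed, and a part of the transgene in these values was not tested. By its label, Flox 1 carries no Cre.

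Of the 4 inhibitors of Jak-Stat signalling on the list, Cish and Socs2 were high in the same 5 libraries and Socs1 and Socs3 were not. Cish was at 42.9, 44.1, 54.4 and 38.5 FPKM in cKO 1 to 4 and at 56.9, 3.78, 12.1 and 8.81 FPKM in Flox 1 to 4 (scaled log2 fold change without Flox 1 2.90, SE 0.23, limma adjusted p = 0.000295). Socs2 was at 6.32, 7.80, 8.10 and 6.88 FPKM in cKO and at 8.33, 1.21, 2.36 and 2.41 FPKM in Flox 1 to 4 (2.03, SE 0.15, limma adjusted p = 4.23e-05). In both, Flox 1 was above every cKO library. Socs1 was at 0.281 to 0.419 FPKM in cKO, 0.333 FPKM in Flox 1 and 0.408 to 1.25 FPKM in Flox 2 to 4. Socs3 was at 1.65 to 2.72 FPKM in cKO, 2.63 FPKM in Flox 1 and 2.41 to 19.5 FPKM in Flox 2 to 4, so that both had their highest values among Flox 2 to 4.

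The receptor Prlr was at 41.3 to 48.9 FPKM in cKO, 63.1 FPKM in Flox 1 and 21.6 to 35.2 FPKM in Flox 2 to 4, and rose without Flox 1 (scaled log2 fold change 0.98, SE 0.08, limma adjusted p = 0.00013). The growth hormone receptor Ghr was at 23.9 to 28.7 FPKM in cKO, 29.9 FPKM in Flox 1 and 33.8 to 50.2 FPKM in Flox 2 to 4. The transducers themselves did not pass the test in any of these fits. Stat5a was at 1.60 to 2.39 FPKM in cKO and 1.34 to 3.45 FPKM in Flox libraries, and Stat5b at 6.09 to 8.18 and 5.94 to 10.4 FPKM.

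Members of other function had the same order of libraries. Neb, the giant actin-binding protein of muscle, was at 3.31 to 3.48 FPKM in cKO, 3.60 FPKM in Flox 1 and 0.0624 to 0.132 FPKM in Flox 2 to 4. Matn2, a matrix protein, was at 75.7 to 85.8 FPKM in cKO, 110 FPKM in Flox 1 and 4.05 to 5.02 FPKM in Flox 2 to 4. Gbp8, a guanylate-binding protein, was at 9.88 to 15.2 FPKM, 12.7 FPKM and 0.118 to 0.345 FPKM in the same order. For each of these 3 genes Flox 1 lay within or above the cKO range and Flox 2 to 4 far below it. Tnfrsf11b, which encodes the decoy receptor osteoprotegerin, was at 18.2 to 24.2 FPKM in cKO, 27.4 FPKM in Flox 1 and 1.48 to 2.08 FPKM in Flox 2 to 4. Fmo1, a flavin monooxygenase, was at 35.7 to 48.8, 50.0 and 1.37 to 6.80 FPKM. Ivd, of leucine breakdown, and Ehhadh, of peroxisomal fatty acid oxidation, were each over 3 times higher in cKO than in Flox 2 to 4 (mean ratios 3.32 and 3.72). Ccnd2, a cyclin of β-cell proliferation, had another order, with 49.9 to 68.6 FPKM in cKO against 83.0 to 99.9 FPKM in Flox 2 to 4, and 85.9 FPKM in Flox 1. It fell as deposited (-0.71, limma adjusted p = 0.0162) and did not pass after scaling (-0.32, limma adjusted p = 0.0783).

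**Figure D3:**
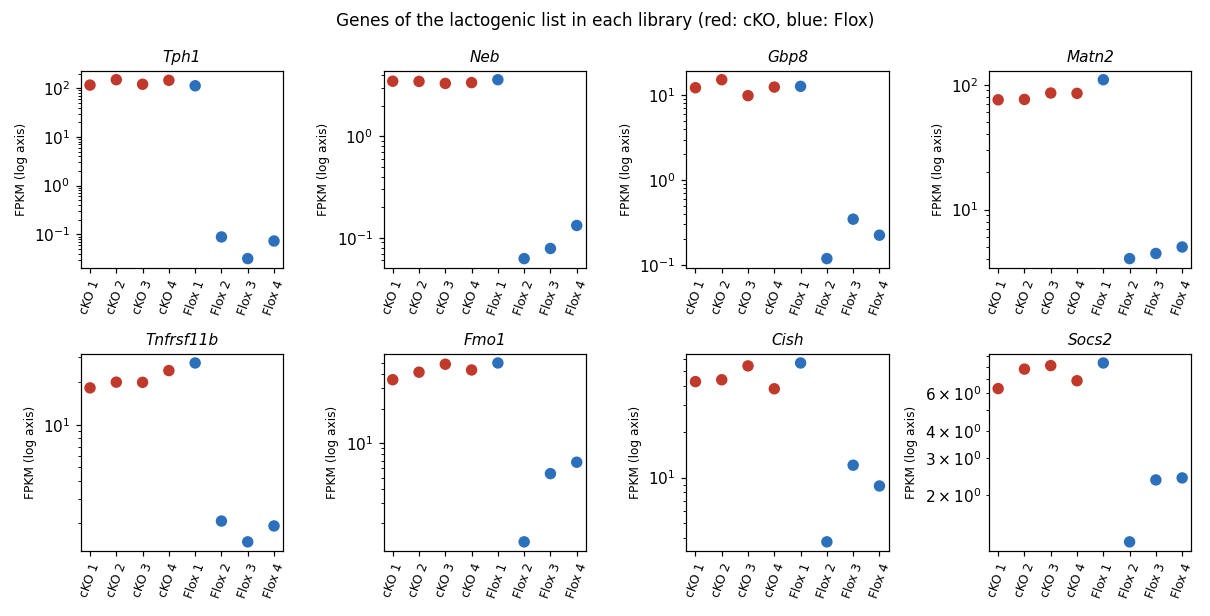
FPKM on a log axis of 8 genes of the lactogenic list in each library, cKO in red and Flox in blue. Flox 1 lay just under the cKO range for Tph1, within it for Gbp8 and above it for the other 6 genes, and Flox 2 to 4 lay below every cKO library for all 8.

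Stat5 dimers bind palindromes of the form TTCNNNGAA. This motif, which reads the same on both strands, was searched in RefSeq promoter windows (GRCm38.p6) from 250 bases before to 30 bases after each start site. It was in 7.83% of 32851 windows and in at least 1 window of 7.77% of the genes tested that had one. Of the 17 tested genes of the lactogenic list with a window, 6 (35.3%) held it, namely Prlr, Cish, Socs3, Wipi1, Ivd and Bcl6. Of these, Socs3 and Bcl6 did not pass as higher with the covariate. Tph1, Tph2, Ehhadh and Lonrf3, which did pass as higher, had no match in their windows. The list was drawn up as genes of the Stat5 response, so its share with the motif is no result of these libraries. The window of Cish, at chr9:107296409-107296688 (plus strand), is shown because Cish is, of the 2 inhibitors that rose, the one with the larger ratio of means (5.47 over Flox 2 to 4, and 3.65 for Socs2), and it held 2 matches, printed in capitals. Both Cish matches lie after the start site. A match is a description of letters and not of binding.
Cish: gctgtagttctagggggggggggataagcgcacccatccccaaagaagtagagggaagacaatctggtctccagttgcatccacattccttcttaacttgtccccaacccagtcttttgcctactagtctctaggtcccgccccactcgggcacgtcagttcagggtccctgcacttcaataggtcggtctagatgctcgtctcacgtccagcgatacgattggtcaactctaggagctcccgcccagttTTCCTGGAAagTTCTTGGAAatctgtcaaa

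Genes were also picked by the size of their change without Flox 1, and Tph1, Matn2 and Gbp8 among them are on the lactogenic list. Among genes called on both scales without Flox 1, outside the acinar list and with no overlap over the 7 libraries, those with the largest scaled change included, after Tph1, Sftpd, Cldn8, Lrrc55, Dnah8, Matn2, Csf2rb, Gbp8, Gfra3, Crispld2 and Prok1. These genes were picked after their values were seen, so that the gap between cKO and Flox 2 to 4 follows from the choice. Sftpd, the collectin surfactant protein D, was at 54.5 to 100 FPKM in cKO, 77.4 FPKM in Flox 1 and 0.242 to 0.770 FPKM in Flox 2 to 4. Cldn8, a tight junction claudin, was at 99.3 to 129 FPKM, 164 FPKM and 0.713 to 2.02 FPKM. Prok1, a secreted prokineticin, was at 4.39 to 6.96 FPKM in cKO and 4.77 FPKM in Flox 1, and was listed at 0.0230, 0 and 0 FPKM in Flox 2 to 4. The fit without Flox 1 was given weight because that library resembled cKO, so its position is a description. Flox 1 lay within or above the cKO range for 130 of the 215 genes called higher in the scaled fit without it (60.5%, no overlap, outside the acinar list), between the ranges for 48, and in the range of the other Flox libraries or below it for 37 (17.2%). Of the 88 genes called lower in the same way, Flox 1 lay with cKO for 61 (69.3%), between for 24 and with the other Flox libraries for 3 (3.41%).

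The genes with the largest decrease in cKO without Flox 1 included the regenerating islet-derived genes Reg2 and Reg3a. Reg3a was at 0.317 to 1.22 FPKM in cKO, 1.75 FPKM in Flox 1 and 11.7, 20.4 and 18.1 FPKM in Flox 2 to 4 (scaled log2 fold change without Flox 1 -3.61, SE 0.20, limma adjusted p = 1.21e-05). With the acinar share as a covariate it remained lower (-3.28, limma adjusted p = 0.000932), whereas Reg2 did not pass (-2.29, limma adjusted p = 0.179). Fkbp5, a glucocorticoid-induced immunophilin, was at 8.01 to 13.1 FPKM in cKO, 13.4 FPKM in Flox 1 and 30.2 to 60.4 FPKM in Flox 2 to 4. It fell by 1.83 on the log2 scale without Flox 1, and by 1.47 with the covariate (limma adjusted p = 0.00697). Of 14 glucocorticoid-induced genes tested over 4 against 4 libraries, 1 was higher and 1 lower after scaling, with a median of -0.10. The shares of all genes were 1.09% and 1.23%. Without Flox 1, 2 were higher and 4 lower, against 8.61% and 8.25% of all genes. Of 15 tested with the covariate, 5 were lower and none was higher, against 1.4% and 2.36% of all genes. Over 4 against 4 libraries after scaling, Cdkn1a, a cell cycle inhibitor, fell (-0.71, limma adjusted p = 0.0397) and Gadd45g rose (0.91, limma adjusted p = 0.0457), and neither passed with the covariate.

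Part of the heat shock genes fell in cKO. Of the 24 heat shock genes tested, 15 passed as lower and 1 as higher as deposited, and 7 as lower and none as higher after scaling, with median log2 fold changes of -0.82 and -0.44. Among all genes, 12.8% were lower as deposited and 1.23% after scaling. Hsph1, a nucleotide exchange factor for Hsp70, was at 10.97, 7.91, 8.31 and 8.25 FPKM in cKO 1 to 4 and at 32.9, 11.7, 33.4 and 28.4 FPKM in Flox 1 to 4 (scaled log2 fold change -1.06, SE 0.22, limma adjusted p = 0.0470). Stip1, which couples Hsp70 to Hsp90, was at 19.6, 14.0, 16.96 and 14.5 FPKM in cKO and at 46.6, 25.4, 56.3 and 52.9 FPKM in Flox 1 to 4 (-1.02, SE 0.13, limma adjusted p = 0.0217). Flox 1 was among the high Flox libraries for both, and Flox 2 was nearest to cKO. The Hsp70 partners Dnaja1 and Hspa8, the Hsp90 partners Chordc1 and Fkbp4, and Cacybp were the other 5. Bag3 (0.23) and Cryab (1.12) were the 2 members with a higher scaled mean, and neither passed the test.

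Without Flox 1, 11 of the 24 heat shock genes passed as lower and none as higher, against 8.25% and 8.61% of all genes, with a median of -0.50. Once the acinar share was a covariate none passed in limma, 3 being lower and 1 higher at an unadjusted p under 0.05, and Hsph1 had a log2 fold change of -0.23 (limma adjusted p = 0.53). The 2 Flox libraries with the lowest acinar share had high levels of Hsph1 and Stip1, as had Flox 1, and Flox 2 had the lowest of the Flox group, and the part of exocrine RNA in the difference was not tested. Over 4 against 4 libraries, genes of the list of endoplasmic reticulum chaperones passed as lower less often than heat shock genes. As deposited, 4 of 28 passed as lower and 1 as higher, against 12.8% and 1.02% of all genes. Of 28 genes of that list none passed after scaling over 4 against 4 libraries, limma giving an unadjusted p under 0.05 to 5 higher and 2 lower members, and the median was -0.36 as deposited and 0.02 after scaling. Without Flox 1, 9 of the 28 passed as higher and none as lower after scaling, with a median of 0.12. The shares of all genes were 8.61% and 8.25%. Under the covariate none passed as higher and 1 as lower, against 2.36% and 1.4% of all genes. Hspa5, the most abundant, was at 399 to 455 FPKM in cKO and at 732, 406, 793 and 675 FPKM in Flox 1 to 4. As deposited, Hspa5 was therefore low in Flox 2 as well as in cKO, and the groups overlapped. They also overlapped after scaling, where Hspa5 did not pass (log2 fold change -0.16, SE 0.15, limma adjusted p = 0.543).

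**Figure D4:**
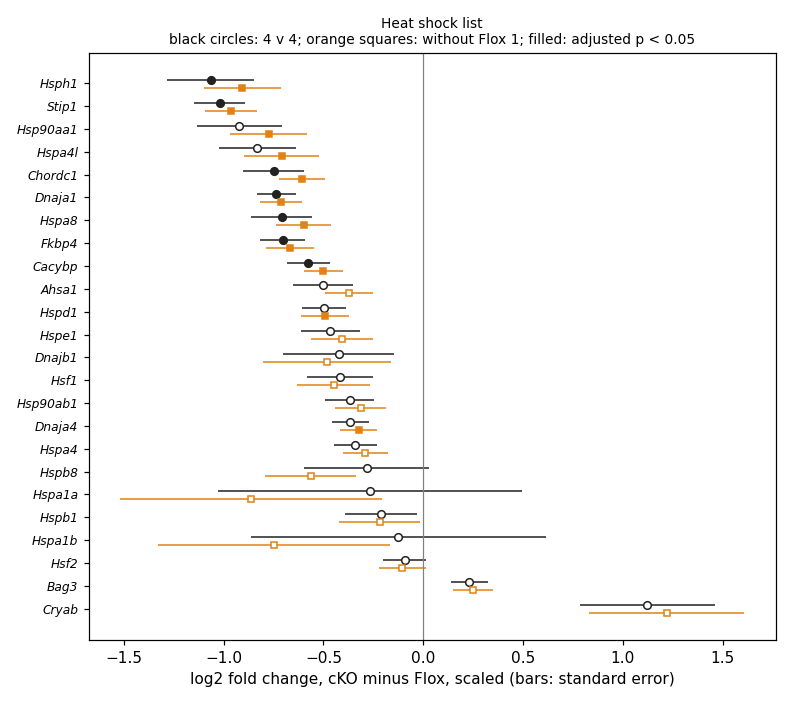
Scaled log2 fold change of cKO against Flox with its standard error for the 24 genes of the heat shock list, over 4 against 4 libraries and without Flox 1; filled symbols have a limma adjusted p under 0.05. Of the 24 genes, 22 were on the lower side, and only Bag3 and Cryab on the higher side, in both fits.

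Heat shock factor binds inverted repeats of GAA, and the searched form was 3 units, GAA and its reverse complement TTC in turn with NN between them, starting with either unit, so that both strands are covered and matches may overlap. It was in 0.563% of the windows described above and in 0.59% of the tested genes with one. Of the 19 heat shock genes with a window, 4 (21.1%) held it, namely Hsph1, Hspd1, Hspe1 and Chordc1. Hspd1 and Hspe1 lie head to head and their windows overlap. A window of Hsph1, at chr5:149636286-149636565 (minus strand), held 1 match, which lies after the start site. The other Hsph1 window, at chr5:149636307-149636586, held none. The window of Chordc1, at chr9:18292017-18292296 (plus strand), held 3 overlapping matches. The Hsph1 window with the match and that of Chordc1 are shown because both genes fell after scaling, and the matches are in capitals.
Hsph1: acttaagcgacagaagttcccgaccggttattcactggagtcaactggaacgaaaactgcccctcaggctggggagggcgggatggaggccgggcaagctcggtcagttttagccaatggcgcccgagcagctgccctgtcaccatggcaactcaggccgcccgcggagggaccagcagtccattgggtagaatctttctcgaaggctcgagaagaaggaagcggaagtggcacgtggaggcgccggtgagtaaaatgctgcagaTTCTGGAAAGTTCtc
Chordc1: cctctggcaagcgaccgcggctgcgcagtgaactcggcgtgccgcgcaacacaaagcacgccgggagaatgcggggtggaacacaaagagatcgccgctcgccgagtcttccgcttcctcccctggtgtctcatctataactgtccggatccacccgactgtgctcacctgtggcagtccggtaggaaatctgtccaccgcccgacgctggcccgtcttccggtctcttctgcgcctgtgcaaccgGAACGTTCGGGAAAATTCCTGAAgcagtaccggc

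A few endothelial markers fell in cKO islets. Of 15 tested, 10 passed as lower as deposited and 4 after scaling, namely Pecam1, the angiopoietin-pathway phosphatase Ptprb, Egfl7 and the Vegf receptor Flt1, and all 15 had a lower scaled mean. The shares among all genes were 12.8% and 1.23%. Pecam1 was at 7.55, 6.36, 6.89 and 7.42 FPKM in cKO 1 to 4 and at 15.3, 9.48, 14.7 and 17.6 FPKM in Flox 1 to 4 (scaled log2 fold change -0.57, SE 0.10, limma adjusted p = 0.0380). The groups did not overlap, and Flox 1 lay with the other Flox libraries. The endothelial list made up 0.0135% to 0.0193% of summed FPKM in cKO and 0.0180% to 0.0360% in Flox libraries. Without Flox 1, 5 passed as lower (8.25% of all genes), and with the acinar share as a covariate none did in limma (2 lower at an unadjusted p under 0.05).

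Other cells of the islet and its surroundings gave no call after scaling over 4 against 4 libraries. No macrophage, stellate, B lymphocyte, adipocyte, neuronal or erythroid marker passed, and the duct list passed for Aqp1 alone. At an unadjusted p under 0.05 in limma, 1 stellate marker was higher and 4 were lower, 2 macrophage, 2 adipocyte and 1 B lymphocyte markers were lower, and there were 0 for the neuronal and erythroid lists. Without Flox 1, 6 of 16 stellate markers and 1 of 6 adipocyte markers, Lpl, passed as lower, and of 13 macrophage markers Cd14 passed as lower and C1qa as higher. Among all genes, 8.25% were lower and 8.61% higher in that fit. Dcn, a matrix proteoglycan, was at 2.36 to 4.88 FPKM in cKO, 4.74 FPKM in Flox 1 and 6.28 to 13.3 FPKM in Flox 2 to 4. Under the covariate 3 stellate markers were lower, 2 macrophage markers were higher and no adipocyte marker passed (0 at an unadjusted p under 0.05 in limma). The shares of all genes were then 1.4% lower and 2.36% higher. None of the 10 T lymphocyte markers in the table reached the mean of 0.5 FPKM. Cd79a, a chain of the B cell receptor complex, was at 0.854 to 2.14 FPKM in cKO and 2.95 to 5.33 FPKM in Flox libraries, without overlap (scaled log2 fold change -0.88, limma adjusted p = 0.0634, and -1.03 with adjusted p = 0.0126 without Flox 1). Of the B7 and CD28 families 4 genes were tested and none passed (limma gave an unadjusted p under 0.05 to 1 higher and 0 lower), with Cd276 at 4.10 to 4.85 FPKM in cKO and 3.801 to 6.03 FPKM in Flox libraries. Gcg, glucagon of α cells, was at 5649 to 8304 FPKM in cKO and 7940 to 15921 FPKM in Flox libraries (scaled log2 fold change -0.39, SE 0.32, limma adjusted p = 0.462). As deposited it was lower (-0.77, limma adjusted p = 0.0460), as were 4 of 9 α-cell genes and 12.8% of all genes. None of the 9 passed after scaling (0 higher and 3 lower by an unadjusted p under 0.05 in limma). Sst, somatostatin of δ cells, had a scaled log2 fold change of -0.01.

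Which β-cell genes passed, and in which direction, depended on the scale and on Flox 1. Ins2 was lower in cKO on both scales, without overlap between the groups. Ins1 overlapped as deposited (log2 fold change -0.22) and was higher without overlap after scaling. Ins1 had a scaled log2 fold change of 0.17 (SE 0.47) and Ins2 of -0.34 (SE 0.63), and neither passed the test. With trend fitting, limma draws each SE toward those of genes of similar level. At this level they include acinar genes, such as Ctrb1 (scaled SE 0.65) and Cela2a (0.66). The scaled SE of Ins2 is therefore not the spread of Ins2 alone, and as deposited it was 0.12. As deposited, Ins2 was lower (-0.72, limma adjusted p = 0.00744) and 10 of 30 β-cell identity genes were lower and none higher. The shares of all genes were 12.8% lower and 1.02% higher. After scaling, over 4 against 4 libraries, 1 of the 30 passed: Hnf4a, a transcription factor, at 5.90, 5.95, 7.02 and 6.31 FPKM in cKO and 4.95, 4.36, 4.86 and 5.51 FPKM in Flox 1 to 4 (0.68, SE 0.11, limma adjusted p = 0.0338). Hnf4a did not pass as deposited (0.33, limma adjusted p = 0.154).

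Without Flox 1, 5 of the 30 β-cell identity genes rose and 7 fell after scaling, against 8.61% and 8.25% of all genes. Pdx1, the homeodomain factor that drives insulin transcription, was at 65.6, 44.6, 46.2 and 52.7 FPKM in cKO, 62.8 FPKM in Flox 1 and 24.6, 41.2 and 44.8 FPKM in Flox 2 to 4 (scaled log2 fold change 0.93, SE 0.11, limma adjusted p = 0.000864). Nkx2-2, G6pc2 and the incretin receptor Glp1r also rose. Ucn3, a peptide of mature β cells, was at 146, 85.0, 91.4 and 85.2 FPKM in cKO, 146 FPKM in Flox 1 and 176, 274 and 274 FPKM in Flox 2 to 4 (-0.84, SE 0.13, limma adjusted p = 0.00373). Under the covariate, Pdx1, Nkx2-2, Glp1r and Mafa were higher and no β-cell identity gene was lower, against 2.36% and 1.4% of all genes. Mafa, a factor of mature β cells, then had a log2 fold change of 1.07 (SE 0.13, limma adjusted p = 0.00259), while Ucn3 (-0.66, limma adjusted p = 0.113) did not pass.

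Of 35 genes of insulin processing and exocytosis, Rab3d rose (0.62, limma adjusted p = 0.0497) and Sytl4 fell over 4 against 4 libraries after scaling. Sytl4, the granule protein granuphilin that docks insulin granules, was at 37.9 to 53.6 FPKM in cKO and 63.7 to 100 FPKM in Flox libraries (-0.53, SE 0.07, limma adjusted p = 0.0217). Without Flox 1, 3 of the 35 rose and 11 fell, so that the share that rose was near the 8.61% of all genes and the share that fell was above 8.25%. Chgb, a granin of secretory granules, was at 1242, 1246, 1416 and 1335 FPKM in cKO, 1337 FPKM in Flox 1 and 383, 692 and 628 FPKM in Flox 2 to 4 (1.65, SE 0.16, limma adjusted p = 0.000328), and it passed with the acinar share as a covariate as well (1.71, limma adjusted p = 0.00232). Chgb therefore had the library order of the lactogenic genes. The calcium channel genes Cacna1c and Cacna1d, the calcium sensor Syt7 and the channel subunit Abcc8 were among the 11 that fell, and none of them passed with the covariate.

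Genes of amino acid and creatine metabolism were mostly higher after scaling. Of 27 tested, 26 had a higher scaled mean, with a median log2 fold change of 0.60 (0.24 as deposited), and 2 passed: Tdh and the creatine transporter Slc6a8. Slc6a8 was at 8.83 to 10.1 FPKM in cKO and at 9.11, 4.76, 8.16 and 8.44 FPKM in Flox 1 to 4, so that the unscaled values overlapped (scaled log2 fold change 0.69, SE 0.12, limma adjusted p = 0.0338). Without Flox 1, 11 of the 27 rose and 1 fell (8.61% and 8.25% of all genes), the former including the serine synthesis enzyme Phgdh, the proline synthesis enzyme Pycr1, asparagine synthetase Asns and the glutamine transporter Slc38a5. Under the covariate 2 rose (2.36% of all genes), Slc6a8 (0.94) and Aldh18a1 (0.63), and the median was 0.06.

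Apof, an apolipoprotein of cholesterol transport followed by the study, was at 0.440, 0.0428, 0.236 and 0.177 FPKM in cKO 1 to 4 and at 0.233, 1.11, 0.697 and 1.31 FPKM in Flox 1 to 4, all of them low values. It was lower as deposited (-0.83, limma adjusted p = 0.044) and did not pass after scaling (-0.68, SE 0.28, limma adjusted p = 0.153). Flox 1 lay within the cKO range, and without it Apof passed (-0.91, SE 0.22, limma adjusted p = 0.0249), but not with the acinar share as a covariate (-1.12, SE 0.38, limma adjusted p = 0.145). Abca1, the exporter of cholesterol to apolipoproteins, was at 10.3, 6.99, 9.56 and 8.14 FPKM in cKO and at 8.29, 16.1, 26.2 and 26.8 FPKM in Flox 1 to 4. Flox 1 again lay within the cKO range. Abca1 did not pass over 4 against 4 libraries (-0.61 after scaling, limma adjusted p = 0.208), and it passed without Flox 1 (-0.93, SE 0.09, limma adjusted p = 0.000316) and with the covariate (-0.79, limma adjusted p = 0.0179).

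Of 26 genes of cholesterol synthesis and uptake, none passed after scaling over 4 against 4 libraries, 3 being lower and none higher at an unadjusted p under 0.05 in limma. Without Flox 1, 7 fell and none rose, against 8.25% and 8.61% of all genes. Under the covariate, 4 were lower and none higher (1.4% and 2.36% of all genes), among them Insig1 (-0.86), which retains the sterol sensor in the endoplasmic reticulum, and the synthesis enzyme Msmo1 (-0.54).

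Single members passed in other lists after scaling over 4 against 4 libraries: the fatty acid carrier Cd36 fell (-0.82) and the retinaldehyde reductase Dhrs3 rose (1.07). Immune lists gave few calls. Of 20 genes of the inflammatory cytokine and acute phase list, Il1r1 alone passed over 4 against 4 libraries. Without Flox 1, 7 of this list fell and none rose, against 8.25% and 8.61% of all genes. Among the 7 was the interleukin-6 receptor Il6ra, at 17.4 to 22.8 FPKM in cKO, 25.3 FPKM in Flox 1 and 39.2 to 56.9 FPKM in Flox 2 to 4 (-0.91, SE 0.08, limma adjusted p = 0.000194). None of 21 interferon response genes and none of 14 antigen presentation genes passed over 4 against 4 libraries, where an unadjusted p under 0.05 was reached by 1 higher and 3 lower genes of the former and 3 lower genes of the latter. As deposited, 4 interferon response and 3 antigen presentation genes were lower and none higher, against 12.8% and 1.02% of all genes. Without Flox 1, 1 interferon response and 4 antigen presentation genes were lower after scaling, against 8.25% of all genes. The 4 included B2m, the light chain of class I molecules, at 44.3 to 60.3 FPKM in cKO, 86.3 FPKM in Flox 1 and 72.0 to 168 FPKM in Flox 2 to 4 (-0.81, limma adjusted p = 0.0113). None of these 4 passed as lower under the covariate. Cytosolic ribosomal protein genes had a median of 0.22 after scaling and -0.16 as deposited, and of 82 tested none passed after scaling, 19 being higher at an unadjusted p under 0.05. Genes of oxidative phosphorylation had medians of 0.12 and -0.26, and of 79 tested none passed after scaling, limma giving an unadjusted p under 0.05 to 11 higher and 1 lower.

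**Figure D5:**
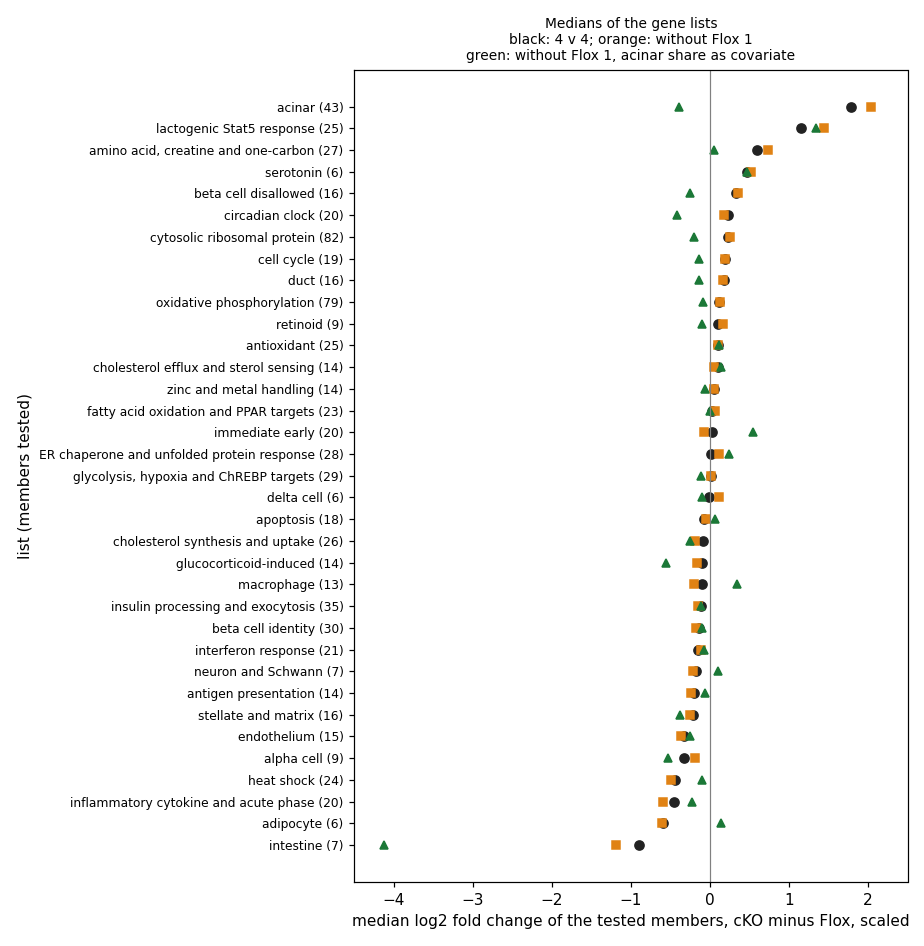
Median scaled log2 fold change of the tested members of each list with at least 5 of them, over 4 against 4 libraries, without Flox 1, and without Flox 1 with the acinar share as a covariate. The lactogenic list had medians of 1.15, 1.44 and 1.34 in the 3 fits, whereas the heat shock list had -0.44, -0.50 and -0.10.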

How the data were processed

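Total RNA of hand-picked islets was sequenced on an Illumina platform, and per the labels the mm10 build was used; the aligner is not given in the sources used here. The authors deposited FPKM, a count of fragments divided by transcript length and by the depth of the library, in 1 table for the 8 chow libraries and another for the high-fat diet libraries. The tables were normalised separately and no test crosses them. Read totals are not in the table, so no counting intervals were given. All 8 columns were matched to samples by the column names in the labels' descriptions, and groups were taken from the titles.

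Genes whose mean reached 0.5 FPKM were tested with limma 3.58.1 in R 4.3.3 on log2(FPKM + 0.5), with trend and robust fitting and Benjamini-Hochberg adjustment, as deposited and after median-of-ratios scaling. A fold change on this scale understates that of low genes. Genes were called at an adjusted p under 0.05 and a log2 fold change over 1 in size. Vtcn1 was tested by an exact two-sided permutation test. On simulated data for this comparison over 11804 genes, 191 to 194 of 200 changed genes were recovered, with 36 false calls where all cKO values were multiplied by 0.75 without scaling and at most 2 otherwise. Every changed gene had a change of the same size, above the fold threshold, and noise was independent between genes. Differences shared by many genes, such as those of acinar share or of Flox 1, were not simulated. The recovery in the data themselves is therefore not given by these numbers.

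The members, lists and tests were chosen with earlier results of these data known. The named genes were those the study turns on, in each direction the 12 largest changes called on both scales without overlap and outside the acinar list, and up to 4 passing members of each list or else its 2 most abundant. Other members of the lists, the genes with the largest change without Flox 1, and the weight given to the fit without Flox 1 were chosen after their values were seen, and the fit without Flox 1 with the acinar share as a covariate was added then. The acinar share is itself an RNA measure of these libraries. Alternatives were other pseudocounts and filters, plain limma, the replicate block, the acinar share as a covariate, acinar genes left out, the 3 libraries per group of the study's heatmaps, and each library left out. Promoter windows were read from RefSeq (GRCm38.p6). Some genes are not reported here.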

Additional observations from a re-analysis of the deposited data

Results flagged for a closer look

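In 182 groups of 4 libraries examined for the named genes and lists, 1 library lay apart from the other 3 by Dixon's criterion in 23, and chance gives this in about 1 in 20 groups. Flox 1 was that library in 14, Flox 2 in 5, cKO 1 in 3 and cKO 3 in 1. Flox 1 was the highest Flox library for Tph1 (112 FPKM), Sftpd (77.4 FPKM), Cldn8 (164 FPKM), Lrrc55 (42.9 FPKM), Dnah8 (11.2 FPKM), Matn2 (110 FPKM) and Gbp8 (12.7 FPKM). It was also the highest for Gfra3 (20.4 FPKM), Prok1 (4.77 FPKM), Neb (3.60 FPKM), Ehhadh (26.7 FPKM), Lonrf3 (5.19 FPKM), Tnfrsf11b (27.4 FPKM) and Tmem40 (1.49 FPKM). All but Tmem40 belong to the lactogenic list or to the genes picked for their change without Flox 1, so these groups are not independent of each other.

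Flox 2 was the highest Flox library for Tdh (1.61 FPKM) and Slc30a2 (0.960 FPKM), and the lowest for Hsph1 (11.7 FPKM), the transcriptional repressor Bcl6 (0.625 FPKM) and the muscarinic receptor Chrm3 (7.67 FPKM). Within cKO, cKO 1 was the highest for Stat5b (8.18 FPKM), Hsph1 (11 FPKM) and Ghr (28.7 FPKM), and cKO 3 for Extl1 (1.48 FPKM). The causes were not tested.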

How the results depend on the processing

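Numbers of called genes are given as higher and lower in cKO, as deposited and then after scaling. They were 23 and 61, then 15 and 6, with a pseudocount of 1. With a pseudocount of 0.1 they were 70 and 237, then 25 and 17. With every gene above 0 tested, limma gave 0 and 0 (602 and 4937 at an unadjusted p under 0.05), then 1 and 1. Without trend and robust fitting they were 121 and 151, then 14 and 5. With the acinar share as a covariate they were 0 and 0 (724 and 231 unadjusted), then 0 and 0 (481 and 522 unadjusted). With acinar genes left out and FPKM rescaled they were 59 and 8. With the 3 libraries per group of the study's heatmaps they were 153 and 546, then 203 and 21. Without a fold minimum they were 120 and 1511, then 129 and 145. Median-of-ratios scaling itself took the deposited counts to 26 and 10. Without Flox 1 and with that covariate, a fit added once the data had been seen, they were 238 and 57, then 159 and 79. Leaving out 1 library in turn gave 2 to 158 higher and 16 to 362 lower as deposited and 0 to 221 higher and 0 to 89 lower after scaling. The cause of these shifts was not tested.

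The replicate block gave 102 and 166 calls as deposited and 0 and 0 in limma after scaling (1478 and 1239 unadjusted). Replicate numbers were not taken to pair the libraries: same-numbered deviations correlated at -0.204, 0.106, -0.0105 and -0.225, and no library correlated best with its own number.

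The difference of Vtcn1 in cKO against Flox, -0.0212 FPKM, was -0.0436 to 0.0244 with 1 library left out, changing sign without Flox 4 (0.0244, exact permutation p = 0.4). Among 2648 comparisons of named-gene values with another setting, 1865 stayed on the same side of the threshold, 187 passed and 584 no longer passed, and 12 changed direction, all of genes that did not pass the test. As deposited, Ins1 became 0.28 with the covariate, 0.25 without acinar genes and 0.23 without Flox 1 with the covariate. Stat5a became 0.66, 0.18 and 0.70 and Stat5b 0.27, 0.13 and 0.38 under these 3. After scaling, both became -0.02 with the heatmap libraries, and Stat5a was -0.01 (without Flox 2) to 0.20 with 1 library left out.

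Read depth is unknown, so values near 0 carry no counting error. Genotype, transgene and exocrine RNA differed together in most libraries and cannot be told apart.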
